A study of Mus musculus with 7 samples.

Results

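Hemidesmosome and laminin expression was examined in transplanted mammary tumours of the mouse lines Met1 and DB7, through 9 genes: Itgb4, Itga6, Lamb3, Lama3, Lama5, Lamb1, Lamc1, Col17a1 and Dst. They were chosen as the integrin alpha6 beta4 adhesion complex and laminin chains, and every probe set that the platform annotation assigned to 1 of these symbols alone was taken. This gave 17 probe sets of the 22626 that are not controls, and 9 of 12393 genes with a symbol of their own. A probe set is a group of short array probes for 1 transcript region, so a gene can be read several times. Total RNA from 3 Met1 and 4 DB7 tumours was hybridised to 1-colour Affymetrix arrays, 1 array per tumour sample. Met1 and DB7 are lines derived from mouse mammary tumours driven by the polyoma middle T oncogene. Met1 is known to metastasise readily and DB7 seldom, and DB7 arose from mice with a mutated form of middle T, so the lines differ in the oncogene as well as in behaviour. Age, strain and host of the animals are not given in the labels used here, nor is it stated that arrays came from separate animals, so the p-values speak only of how far these samples vary. The series' design text speaks of tumours of outcrossed mice, whereas the sample labels name transplants. The labels were followed.

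Hemidesmosomes fasten an epithelial cell to its basement membrane. Their core is the integrin alpha6 beta4, which grips laminin outside the cell and is tied to keratin filaments inside by plectin and the epithelial form of dystonin, with collagen XVII as a further membrane partner. Laminins are trimers of an alpha, a beta and a gamma chain: alpha3 and beta3 are chains of the laminin of hemidesmosomes, while alpha5, beta1 and gamma1 make up a widespread laminin of epithelial and vascular basement membranes. In the normal mammary gland these molecules mark the interface of the myoepithelial layer with the stroma.

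The deposited values were treated as log2 signals. Array medians lay between 6.53 and 6.61, and correlations across probe sets were 0.994 to 0.996 among Met1 arrays, 0.986 to 0.992 among DB7 arrays and 0.968 to 0.972 between the lines. The luminal keratin Krt18 and the epithelial adhesion molecule Epcam stood at or above 11.35 on every array, so epithelial transcripts were abundant in every sample. These were the 2 brightest tested of 12 luminal markers, and the fibroblast marker Col3a1 was also bright, at 9.91 to 12.13. Of the 10 basal and myoepithelial markers measured, 3 were tested and 0 differed in limma. The basal keratin Krt5 (6.84 to 7.12) and the contractile genes Acta2 (8.05 to 9.27) and Tagln (7.18 to 8.34) lay above the array median on all 7 arrays. The brightest probe sets of the basal keratin Krt14 (5.51 to 5.98) and the basal transcription factor Trp63 (5.32 to 5.75) lay below the array median on all 7 arrays.

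Tested probe sets were those above the array median on at least 3 arrays. Of the 17 hemidesmosome and laminin probe sets 10 were tested, covering 7 of the 9 genes. In Met1, 7 of these 10 were higher and 1 lower at an adjusted p under 0.05 (limma, Benjamini-Hochberg over 11704 probe sets), and 2 did not pass. Over all tested probe sets 31.0% were called, 13.4% as higher and 17.6% as lower in Met1. The genes that were higher were Itgb4, Lamb3, Itga6, Dst and Lamb1, and the gene that was lower was Lamc1. Lamb3 and Lamb1 lay above the array median in Met1 alone, so the filter admitted them through the line in which they were high. Dst probe set 1421276_a_at lay above it on 3 Met1 arrays and 1 DB7 array, and so also depended on Met1 to be admitted. Counting all 17 probe sets, tested or not, the values of the lines did not overlap for 8 with Met1 higher and for 3 with Met1 lower, against 11.2% and 16.2% (27.5% in all) of the probe sets that are not controls.

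**Figure D1:**
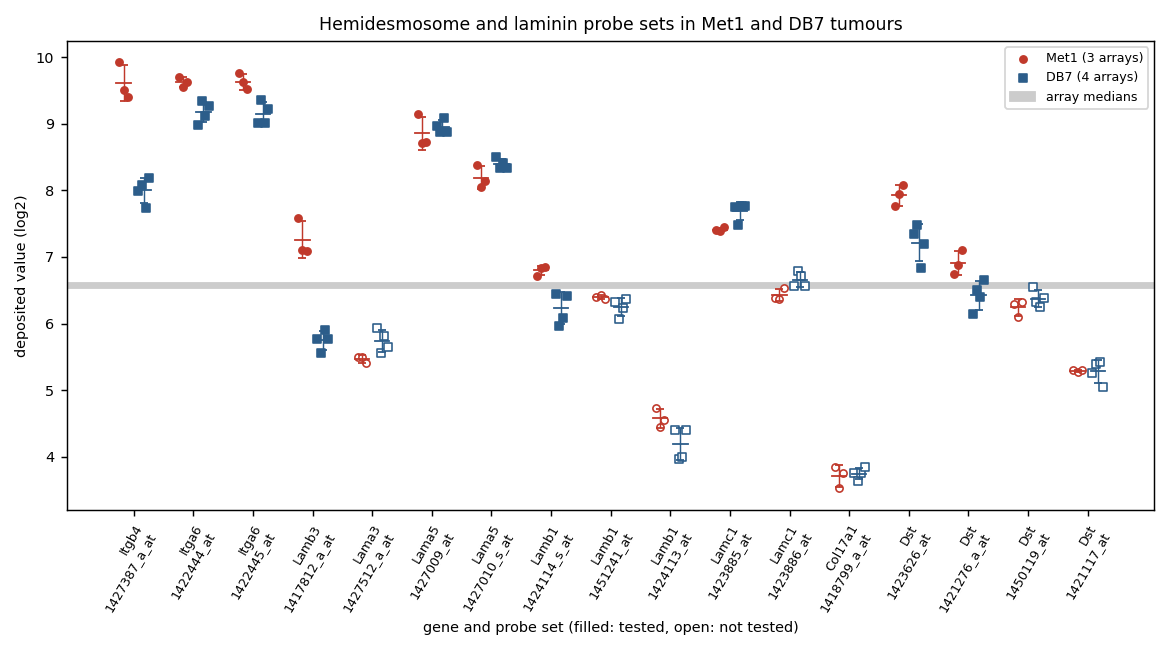
Deposited log2 value (vertical axis) of each of the 17 probe sets of the 9 genes in 3 Met1 arrays (circles) and 4 DB7 arrays (squares); filled symbols were tested, open symbols were not, lines mark the group mean with its SD, and the grey band spans the array medians. Itgb4 and Lamb3 show the widest gaps between the lines, and Col17a1 lies near 3.7 in both.

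Itgb4, the integrin beta4 chain whose long cytoplasmic tail builds the hemidesmosome plaque, was read by probe set 1427387_a_at. It measured 9.93, 9.51 and 9.40 on the Met1 arrays and 7.996, 8.08, 7.74 and 8.18 on the DB7 arrays. Every Met1 array lay above every DB7 array, and the lowest Met1 value exceeded the highest DB7 value by more than either group's SD, 0.28 over the 3 Met1 arrays and 0.19 over the 4 DB7 arrays. The difference, Met1 minus DB7, was 1.61 (SE 0.15; limma, adjusted p = 9.12e-05), a 3.06-fold higher signal. These are bulk tumour samples, in which fewer cells of a type and less RNA per cell cannot be told apart.

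Itga6, the alpha6 chain that pairs with beta4 in hemidesmosomes and with beta1 elsewhere, was read by 2 probe sets of the same source transcript. Probe set 1422444_at gave 9.70, 9.55 and 9.62 in Met1 and 8.99, 9.34, 9.11 and 9.27 in DB7. Probe set 1422445_at gave 9.75, 9.62 and 9.52 in Met1 and 9.01, 9.36, 9.004 and 9.21 in DB7. Both separated the lines without overlap, with DB7 2 the closest to Met1. The differences were 0.45 (SE 0.10; limma, adjusted p = 0.0105) and 0.48 (SE 0.11; adjusted p = 0.0109), or 1.36-fold and 1.4-fold. The call of 1422445_at was lost without Met1 1 (adjusted p = 0.0505).

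The rise of the Itgb4 signal was larger than that of Itga6, the gene of its alpha6 partner. The within-array log2 ratio of Itgb4 to Itga6 (the brighter Itga6 probe set) was 0.22, -0.04 and -0.22 in Met1 and -0.99, -1.26, -1.38 and -1.09 in DB7. The lines did not overlap, and the ratio differed by 1.17 between them (exact permutation test over 35 divisions of the arrays, two-sided, p = 0.0286, the smallest these 7 arrays allow). Adjusted over the 5 pairs of partners that could be tested, p was 0.0357. The integrin beta1 gene Itgb1, whose product also pairs with alpha6, differed by -0.03 (SE 0.12; limma, adjusted p = 0.889).

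Dst encodes dystonin, a giant linker of the plakin family that is made in epithelial, neuronal and muscle forms, and its 4 probe sets gave different answers. Probe set 1423626_at measured 7.76, 7.95 and 8.07 in Met1 and 7.34, 7.49, 6.83 and 7.19 in DB7. Probe set 1421276_a_at measured 6.74, 6.88 and 7.10 in Met1 and 6.14, 6.504, 6.40 and 6.65 in DB7. Met1 was the higher line without overlap at both, by 0.71 (SE 0.15; limma, adjusted p = 0.0071) and 0.48 (SE 0.13; adjusted p = 0.0246). The second no longer passed when Met1 2 (adjusted p = 0.0698), Met1 3 (0.108) or DB7 3 (0.0565) was left out. It lay above the array median on 1 DB7 array, so it depended on Met1, the line in which it was high, to be tested.

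The other 2 Dst probe sets, 1450119_at and 1421117_at, come from a different transcript record than either of those. Neither passed the intensity filter. They ranged from 6.10 to 6.32 in Met1 and from 6.25 to 6.55 in DB7 for the first, and from 5.27 to 5.30 and from 5.05 to 5.42 for the second. The lines overlapped at both, with mean differences of -0.13 and 0.01. In a fit without the intensity filter, in which 17.8% of 22626 probe sets were called, their adjusted p-values were 0.391 and 0.969. Which form of dystonin each probe set reads is not given in the sources used here.

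RefSeq (GRCm38.p6) lists start sites of Dst that lie far apart in the gene, and the 250 bases before each of 2 of them are shown because the 4 probe sets disagreed. The 5 strings searched on both strands were the GC box GGGCGG, the E2 box CAGGTG, the TATA box TATAAA, the AP-1 site TGANTCA and the STAT site TTCNNNGAA. Capitals mark matches, none of which overlapped another.
Dst, chr1:34011345-34011594, plus strand: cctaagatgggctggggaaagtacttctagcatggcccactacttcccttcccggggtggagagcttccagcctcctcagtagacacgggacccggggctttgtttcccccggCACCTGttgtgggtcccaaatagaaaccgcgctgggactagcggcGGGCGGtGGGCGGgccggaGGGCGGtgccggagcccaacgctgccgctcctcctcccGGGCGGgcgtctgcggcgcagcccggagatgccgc
Dst, chr1:34160010-34160259, plus strand: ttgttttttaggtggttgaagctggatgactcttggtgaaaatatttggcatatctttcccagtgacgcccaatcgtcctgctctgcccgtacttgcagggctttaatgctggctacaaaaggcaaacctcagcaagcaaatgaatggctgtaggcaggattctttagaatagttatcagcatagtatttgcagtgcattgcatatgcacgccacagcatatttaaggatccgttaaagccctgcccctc
The first window is rich in G and C and holds 4 GC boxes and 1 E2 box. The second holds none of the 5 strings. Both windows lie inside the span that RefSeq gives Dst, 33907888 to 34308662. Among 32851 RefSeq windows of this length, 32.7% hold a GC box, 17.2% an E2 box, 12.4% a TATA box, 6.75% an AP-1 site and 7.02% a STAT site. A match is a run of letters, and no binding was measured.

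Col17a1, the transmembrane collagen that completes the hemidesmosome of skin, was near the bottom of the array in both lines. Its probe set 1418799_a_at measured 3.85, 3.52 and 3.75 in Met1 and 3.75, 3.64, 3.75 and 3.84 in DB7, at the 7.0th percentile of probe sets in both lines. The lines overlapped. The gene was not tested, so no excess or lack of Col17a1 in either line is shown.

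The ratio of Itgb4 to Dst (probe set 1423626_at) was also higher in Met1. It was 2.17, 1.56 and 1.33 in Met1 and 0.65, 0.59, 0.90 and 0.98 in DB7, without overlap. The difference of 0.90 had an exact permutation p of 0.0286 (adjusted over the 5 pairs, 0.0357). The Itgb4 signal therefore rose by more than those of Itga6 and of this Dst probe set, whose form of dystonin is not given. Col17a1, which had no tested probe set, could not be compared, and the plectin gene Plec was not among the pairs.

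Lamb3 encodes the laminin beta3 chain, which is found in the laminin of hemidesmosomes. Probe set 1417812_a_at measured 7.58, 7.10 and 7.09 in Met1 and 5.77, 5.56, 5.90 and 5.76 in DB7. No DB7 array came within 1 log2 unit of any Met1 array. The difference was 1.51 (SE 0.14; limma, adjusted p = 9.58e-05), or 2.85-fold. All 4 DB7 values lay below the array median.

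The alpha3 chain that assembles with beta3 read lower in Met1, at a low signal. Lama3 (probe set 1427512_a_at) measured 5.50, 5.50 and 5.40 in Met1 and 5.93, 5.56, 5.82 and 5.65 in DB7. All 3 Met1 arrays were below all 4 DB7 arrays by this probe set, with a mean difference of -0.27. It lay below the array median throughout and was not tested. Without the intensity filter its adjusted p was 0.0952 (limma).

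Lama5 encodes the alpha5 chain, the laminin alpha chain with the brightest probe sets here. Probe set 1427009_at measured 9.14, 8.70 and 8.72 in Met1 and 8.97, 8.87, 9.08 and 8.87 in DB7. Probe set 1427010_s_at measured 8.39, 8.05 and 8.14 in Met1 and 8.51, 8.34, 8.40 and 8.34 in DB7. The lines overlapped at both, because Met1 1 was high among the Met1 arrays. The differences were -0.09 (95% interval -0.37 to 0.18; limma, adjusted p = 0.609) and -0.21 (95% interval -0.43 to 0.02; adjusted p = 0.146). Without Met1 1 the second passed the threshold as lower in Met1, at -0.31 (adjusted p = 0.0494).

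Lamb1 encodes the beta1 chain of the widespread laminins. Probe set 1424114_s_at measured 6.72, 6.83 and 6.84 in Met1 and 6.45, 5.97, 6.08 and 6.42 in DB7. Met1 was higher without overlap, by 0.57 (SE 0.13; limma, adjusted p = 0.0104; 1.48-fold), and DB7 1 and DB7 4 were the closest to Met1. The suffix of this probe set marks probes shared by more than 1 transcript.

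The other 2 Lamb1 probe sets come from the same source transcript and were below the filter. Probe set 1424113_at measured 4.73, 4.45 and 4.56 in Met1 and 4.40, 3.97, 4.00 and 4.40 in DB7. The lines did not overlap there, and DB7 1 and DB7 4 were again the highest DB7 arrays. Probe set 1451241_at overlapped, at 6.36 to 6.42 in Met1 and 6.07 to 6.36 in DB7. The mean differences were 0.39 and 0.15, with adjusted p-values of 0.0689 and 0.295 in limma without the intensity filter.

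Markers of several cell types, stromal ones among them, moved with Lamb1 inside the DB7 line. The mean of 12 fibroblast markers was 8.97 and 8.38 on DB7 1 and DB7 4 against 7.86 and 7.44 on DB7 2 and DB7 3, and 8.21 to 8.89 in Met1. The mean of 12 endothelial markers was 7.03 and 6.78 on DB7 1 and DB7 4 against 6.41 and 6.48 on the other DB7 arrays, and 6.61 to 6.85 in Met1. Every other marker list except keratinocyte and skeletal muscle also had higher means on DB7 1 and DB7 4 than on DB7 2 and DB7 3. The macrophage mean was 8.17 and 7.90 against 7.35 and 7.46, and the B cell mean 7.13 and 7.40 against 5.999 and 6.20. Of the 9 tested fibroblast and 8 tested endothelial genes 0 passed the threshold in limma, which does not show equal levels. All 9 fibroblast genes read higher in Met1 on average, by 0.07 to 0.81, with SEs of 0.15 to 0.52. The endothelial genes differed by -0.11 to 0.48. Without DB7 1 and DB7 4 the Lamb1 difference was 0.77 (limma, adjusted p = 0.00156). The part of these cells in the Lamb1 result was not tested.

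Lamc1 encodes the gamma1 chain, which joins beta1 in most laminins, and it went the other way. Probe set 1423885_at measured 7.40, 7.38 and 7.44 in Met1 and 7.75, 7.48, 7.77 and 7.76 in DB7. Met1 was lower without overlap, though DB7 2 lay within 0.1 of Met1. The difference was -0.28 (SE 0.09; limma, adjusted p = 0.0418; 1.21-fold), a call lost under quantile normalization (0.057), median centring (0.0511) and a fit without DB7 1 and DB7 4 (0.169). Leaving out any 1 array other than DB7 2 lost it as well. The second probe set, 1423886_at, was below the filter and measured 6.38, 6.37 and 6.53 in Met1 and 6.57, 6.79, 6.72 and 6.57 in DB7, a difference of -0.23. Met1 was the lower line at both probe sets, without overlap at either.

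Ratios between chains that can share a trimer differed between the lines in the pairs with Lamb1. Its probe set 1424114_s_at passed the intensity filter through Met1 alone, the line in which it was high, which limits both of these ratios. The within-array ratio of Lamb1 to Lamc1 was -0.69, -0.55 and -0.60 in Met1 and -1.30, -1.51, -1.68 and -1.34 in DB7. These ranges are far apart, by 0.85 on average (exact permutation p = 0.0286; adjusted over the 5 pairs, 0.0357). The ratio of Lama5 to Lamb1 was lower in Met1 by 0.66, at 1.87 to 2.42 against 2.45 to 3.00 in DB7 (exact permutation p = 0.0286; adjusted 0.0357). The ratio of Lama5 to Lamc1 overlapped between the lines, averaging 1.45 ± 0.25 (SD) over 3 Met1 arrays and 1.26 ± 0.12 (SD) over 4 DB7 arrays (exact permutation p = 0.257). A within-array ratio shows unequal change of 2 genes and not which of them changed.

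**Figure D2:**
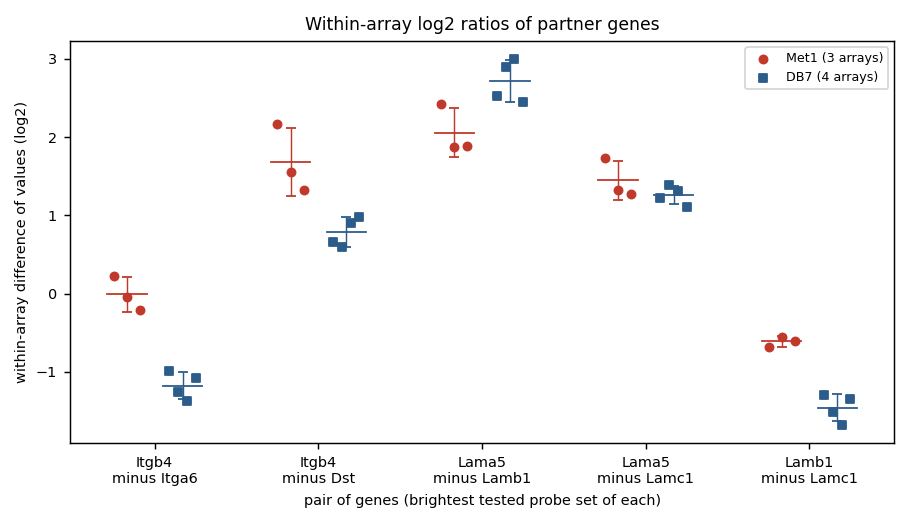
Within-array log2 ratio (vertical axis) of 5 pairs of partner genes in 3 Met1 arrays (circles) and 4 DB7 arrays (squares), with group means and SD. The lines do not overlap in 4 pairs and overlap for Lama5 with Lamc1.

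Promoter windows of the laminin genes are shown beside these values because Lamb3, Lamb1 and Lama5 gave 3 different readings: a large rise, a small rise and no call. RefSeq windows were at hand for 5 of the 9 genes, and Itgb4, Itga6, Lama3 and Lamc1 are named only. Each line holds the 250 bases before a RefSeq start (GRCm38.p6), 5' to 3' on the gene's strand, with matches to the 5 strings above in capitals.
Lamb3, chr1:193301744-193301993, plus strand: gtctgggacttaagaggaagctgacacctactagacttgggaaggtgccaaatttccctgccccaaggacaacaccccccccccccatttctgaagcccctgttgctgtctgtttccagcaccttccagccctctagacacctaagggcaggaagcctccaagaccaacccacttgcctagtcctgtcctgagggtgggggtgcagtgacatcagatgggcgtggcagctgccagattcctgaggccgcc
Lamb1, chr12:31265043-31265292, plus strand: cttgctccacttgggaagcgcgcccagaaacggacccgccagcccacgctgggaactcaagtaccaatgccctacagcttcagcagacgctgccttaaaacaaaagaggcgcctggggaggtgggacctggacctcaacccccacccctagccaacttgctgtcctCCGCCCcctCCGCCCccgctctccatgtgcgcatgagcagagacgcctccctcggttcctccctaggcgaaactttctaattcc
Lama5, chr2:180225860-180226109, minus strand: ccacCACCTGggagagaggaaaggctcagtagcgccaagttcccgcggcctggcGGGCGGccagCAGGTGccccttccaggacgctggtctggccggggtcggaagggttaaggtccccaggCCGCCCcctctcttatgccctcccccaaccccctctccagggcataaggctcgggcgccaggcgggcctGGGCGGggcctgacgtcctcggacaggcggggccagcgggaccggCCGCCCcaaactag
The Lamb3 window shown holds none of the 5 strings, while the window before a second RefSeq start of Lamb3, which adjoins it and is not shown, holds 1 E2 box. Both Lamb3 windows lie inside the span that RefSeq gives the gene, which begins at 193294353, and the bases before that point were not searched. The Lamb1 window runs past the first base of its gene's span, 31265146. The Lama5 window, on the minus strand, likewise runs into its gene's span, which ends at 180225904. The Lamb1 window holds 2 GC boxes, both on the opposite strand, and the Lama5 window holds 4 GC boxes and 2 E2 boxes. The strings are common in promoters at the shares given for Dst, and nothing about a factor follows from their presence or absence.

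Itgb4 stood at the edge of a short stretch of chromosome 11 in which the direction switched. Neighbours were taken in RefSeq order as up to 10 nearest tested genes on each side. Of the 10 tested genes before Itgb4, 8 were lower in Met1, 0 were higher and 2 did not pass (limma), with a median difference of -0.93. The nearest, Sap30bp, measured 8.17, 8.11 and 7.97 in Met1 and 8.88, 9.12, 8.88 and 9.09 in DB7. The next 6 tested genes after Itgb4 were all higher in Met1, with differences of 0.54 to 1.11 and a median of 0.96, and in none of the 6 did the lines overlap. They were Unk, Wbp2, Trim47, Mrpl38, Fbf1 and Ten1. Ten1 lay above the array median on DB7 4 alone among the DB7 arrays. It therefore depended on Met1, the line in which it was high, to be tested. Wbp2, which encodes a WW domain binding protein, measured 9.72, 9.46 and 9.28 in Met1 and 8.51, 8.49, 8.06 and 8.46 in DB7. Past Ten1 the direction turned again, with 2 of the following 4 genes lower and 0 higher. Over the tested genes of chromosome 11 as a whole, 17.9% were higher and 18.1% lower in Met1, with a median of -0.03. The stretch was marked out after the values were seen and was given no test. What sets its edges was not tested.

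Lamb1 lay on chromosome 12, where genes higher in Met1 were common. Of its 20 nearest tested neighbours, 12 were higher and 0 lower in Met1, with a median difference of 0.38. Over 252 tested genes of chromosome 12 the median was 0.35, and 49.6% were higher and 4.37% lower. The Lamb1 difference of 0.57 therefore stands among neighbours that moved in the same direction, whereas the 13 neighbours of Lamb3 had a median of -0.10, those of Itga6 -0.07, those of Dst -0.06 and those of Lamc1 0.01.

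**Figure D3:**
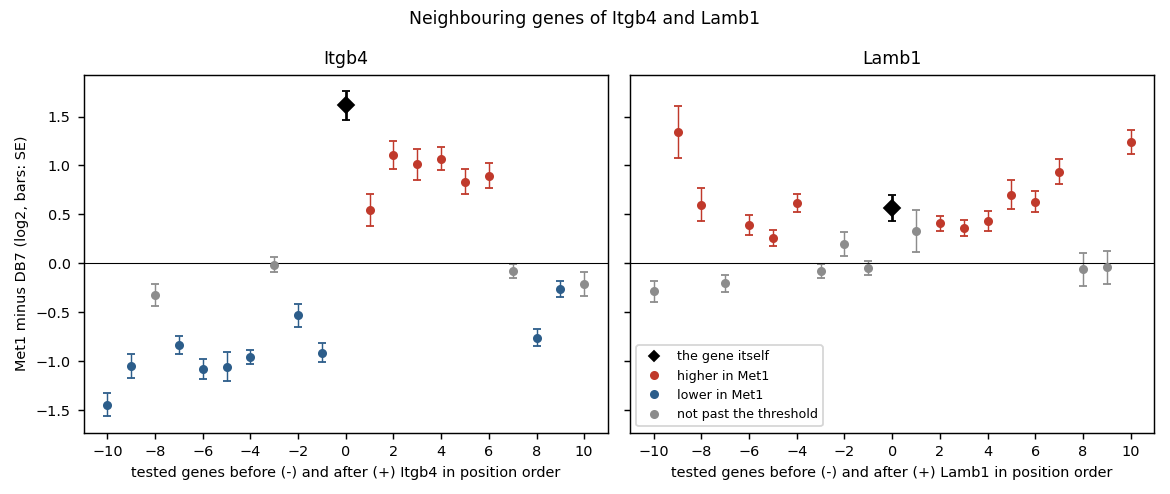
Difference between the lines (vertical axis, Met1 minus DB7, log2, with SE) of Itgb4 and of Lamb1 (black diamonds) and of the 10 nearest tested genes on each side in position order (circles, coloured by call). Itgb4 and the next 6 genes lie above 0 between genes that lie below, while 12 of the 20 neighbours of Lamb1 were higher in Met1.

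Related genes of the basement membrane and its receptors differed in both directions. Over 5 lists of related genes, 38 of 55 genes were tested, of which 5 were higher, 5 lower and 28 not past the threshold. Among all tested genes, each read by its brightest tested probe set, 30.9% were called, 13.0% were higher and 17.9% lower. The median difference of these 38 was 0.13, against -0.04 over all 7482 tested genes.

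Other matrix genes were led by nephronectin. Npnt, a basement membrane ligand of integrin alpha8 beta1, measured 9.88, 9.96 and 9.86 in Met1 and 6.82, 7.73, 6.98 and 7.51 in DB7 at its brightest probe set. No array of either line came near the other line, and the difference was 2.64 (SE 0.20; limma, adjusted p = 3.84e-05). The other 4 Npnt probe sets differed by 1.11 to 2.58 and all passed. Those that differed by 2.58 and 1.23 lay above the array median in Met1 alone. The filter therefore admitted them through the line in which they were high. The Npnt probe set that differed by 1.33 lay above the array median on 3 Met1 and 2 DB7 arrays. It also depended on Met1 to be admitted. Agrn, the heparan sulphate proteoglycan agrin, measured 9.81, 9.60 and 9.49 in Met1 and 8.90, 8.68, 8.59 and 8.81 in DB7, a rise of 0.89 (SE 0.11; adjusted p = 0.000463). These were the 2 genes called among 14 tested in this list (median 0.38), and 12 did not pass. The collagen IV chain gene Col4a5, named after its values were seen, differed by 0.39 (SE 0.13; adjusted p = 0.0521) at its brightest probe set and by 0.95 (SE 0.12; adjusted p = 0.000646) at the other. Lama4, the alpha4 chain of vascular and muscle laminins, was the single other laminin chain tested of 6 listed. It was lower in Met1 by -0.36 (SE 0.09; adjusted p = 0.0165), at 7.66, 7.92 and 7.97 against 8.16 to 8.26 in DB7. This call was lost without Met1 1 (0.0547) and without DB7 1 and DB7 4 (0.0605).

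Laminin receptors other than alpha6 beta4 were split. Of 9 tested, the syndecans Sdc2 and Sdc1, which are heparan sulphate co-receptors, were higher in Met1 by 0.70 (SE 0.09; limma, adjusted p = 0.00076) and 0.48 (SE 0.11; adjusted p = 0.0105). Other probe sets of Sdc1 differed by 0.06 and 0.18, which did not pass, and by 0.42 (limma, adjusted p = 0.0379). The last lay above the array median on 1 DB7 array. Other probe sets of Sdc2 differed by 0.67 (adjusted p = 0.000474) and by 0.36, which did not pass (0.0535). Itga3, the alpha3 chain of the integrin alpha3 beta1 that also binds the laminin of hemidesmosomes, was lower by -0.44 (SE 0.12; adjusted p = 0.0215). It measured 7.66, 7.49 and 7.79 in Met1 and 8.24, 7.97, 7.88 and 8.26 in DB7, without overlap. Its other probe sets differed by -0.44 and -0.23, and the call was lost without Met1 1 (0.0619), without Met1 2 (0.0941) and without DB7 1 and DB7 4 (0.0906). Rpsa, the ribosomal protein known also as the laminin receptor, was lower by -0.35 (SE 0.07; adjusted p = 0.00631), and its many genomic copies make this reading uncertain. The other 5 did not pass, among them the dystroglycan gene Dag1, the tetraspanin gene Cd151 and Itgb1, which differed by -0.12, 0.21 and -0.03.

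Among hemidesmosome partners and the anchoring fibril collagen, Cd9 was the single gene called. Of 7 tested genes, 0 were higher, Cd9 was lower and 6 did not pass (median 0.02). Cd9, a tetraspanin of integrin complexes, measured 10.20, 10.38 and 10.16 in Met1 and 11.02, 11.12, 10.96 and 11.16 in DB7, a fall of 0.82 on the log2 scale (SE 0.09; limma, adjusted p = 0.000217). Plec, the plectin gene, differed by -0.16 (SE 0.11; adjusted p = 0.305), and Krt5 by 0.17 (SE 0.08; adjusted p = 0.136). Among 8 tested enzymes that cut laminins or collagen XVII or activate such enzymes, Furin, a proprotein convertase, was higher by 0.41 (SE 0.12; adjusted p = 0.0285). Mmp14, a membrane metalloproteinase that cleaves matrix proteins, was lower by -0.65 (SE 0.16; adjusted p = 0.014), and by -0.98 at its second probe set. Furin no longer passed when Met1 1 (0.105), Met1 3 (0.0982), DB7 3 (0.0533) or DB7 4 (0.0581) was left out, nor without DB7 1 and DB7 4 together (0.0703). That of Mmp14 was lost without Met1 1 (0.0636), without Met1 2 (0.0638) and without DB7 1 and DB7 4 (0.0609).

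**Figure D4:**
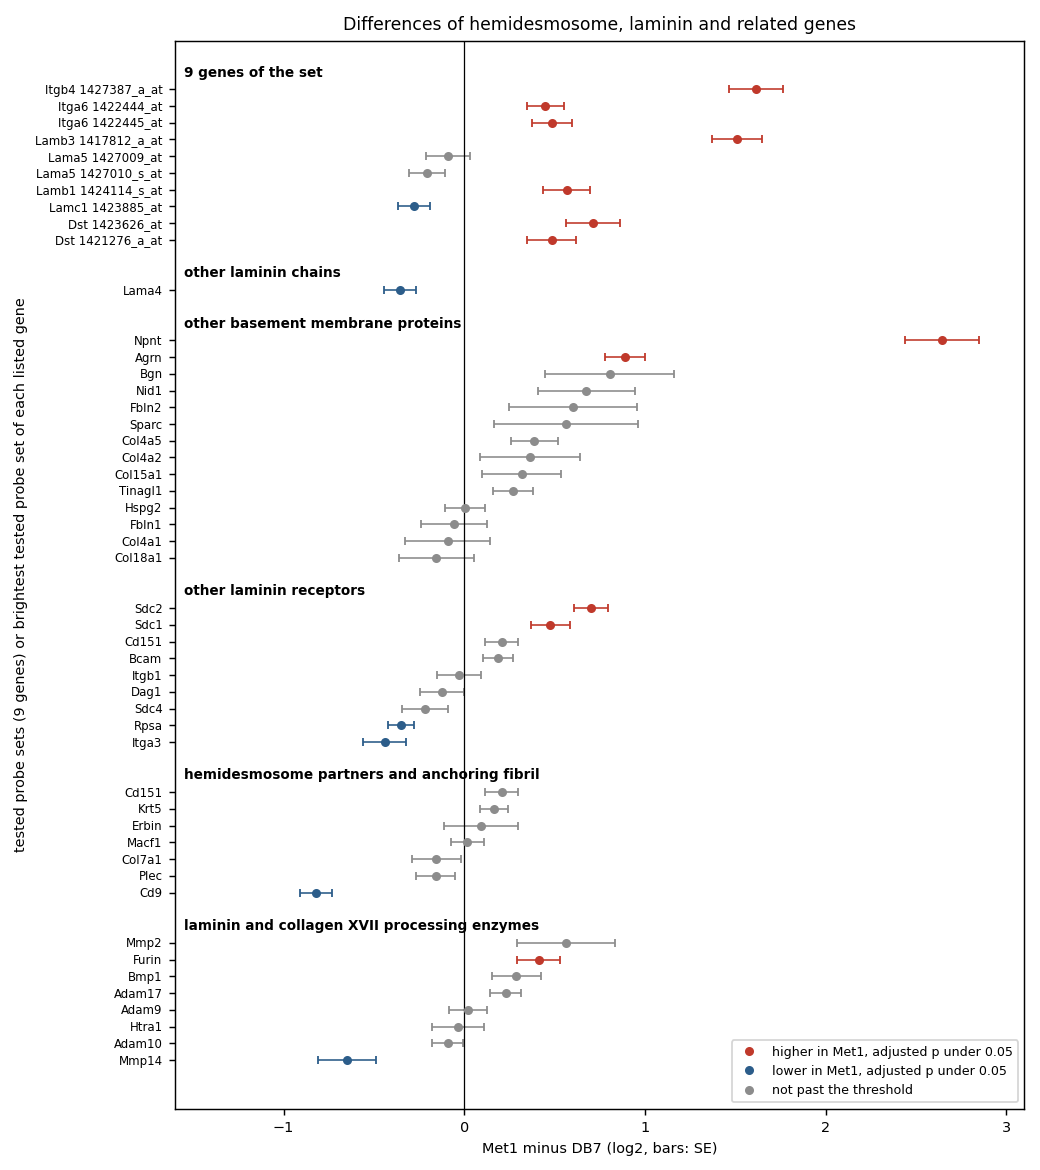
Difference between Met1 and DB7 (horizontal axis, log2, with SE) of the 10 tested probe sets of the 9 genes and of the brightest tested probe set of each related gene, grouped by list and coloured by call. Npnt shows the largest difference among the genes plotted, at 2.64, followed by Itgb4 and Lamb3.

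Leaving out DB7 1 and DB7 4 raised the count of related genes higher in Met1 from 5 to 13 and lowered the count of those lower from 5 to 2. Leaving out DB7 1 alone gave 11 higher. Over all 11704 tested probe sets, 1566 were higher in Met1 on all arrays. That count was 1660 without DB7 1 and DB7 4, and 1597 without DB7 1 alone. The genes added by both were Bgn, Bmp1, Fbln2, Mmp2, Nid1 and Sparc, named after their values were seen. The 7 hemidesmosome and laminin probe sets higher in Met1 stayed at 7 without these 2 arrays.

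Marker levels of other cell types that can express these genes are given beside these results, and their part in them was not tested. The mean of 9 keratinocyte markers was 5.02 to 5.10 in Met1 and 5.0 to 5.20 in DB7, below the array medians. The mean of 8 Schwann cell and neuron markers was 6.15 to 6.22 in Met1 and 6.17 to 6.37 in DB7. Sox10 alone of that list was called, at 10.38 to 10.60 in Met1 and 9.80 to 10.33 in DB7, a difference of 0.39 (SE 0.13; limma, adjusted p = 0.049), and it is also known in mammary epithelium. The mean of 12 luminal markers was 8.87 to 9.14 in Met1 and 8.96 to 9.10 in DB7, with 3 of 10 tested genes higher and 5 lower. Among all tested genes 13.0% were higher and 17.9% lower. The 3 differed by 1.46 to 1.64 and the 5 by -0.32 to -1.79, so the overlapping mean holds shifts in both directions. Muc1 and Gata3, both among the 3 and named after their values were seen, depended on Met1 to be tested. Muc1 lay above the array median in Met1 alone, and Gata3 in Met1 and on DB7 1. Krt18 and Epcam were among the lower, by -1.01 (SE 0.11; limma, adjusted p = 0.000197) and -0.48 (SE 0.09; adjusted p = 0.00437). The mean of 10 basal markers was 6.41 to 6.54 in Met1 and 6.32 to 6.56 in DB7. The mean of 9 smooth muscle and pericyte markers did not overlap, at 7.33 to 7.46 in Met1 and 7.0 to 7.30 in DB7. In that list Rgs5 and Mylk were higher in Met1, by 0.62 (SE 0.16; limma, adjusted p = 0.0177) and 0.64 (SE 0.10; adjusted p = 0.00182). Mylk lay above the array median on DB7 1 alone among the DB7 arrays, and so depended on Met1 to be admitted. The mean of 10 skeletal muscle markers did not overlap either, and was lower in Met1 at 5.31 to 5.41 against 5.43 to 5.56. Of its 3 tested genes 1 was lower and 1 higher in Met1. Eno3 differed by -1.53 (SE 0.21; limma, adjusted p = 0.00076) and Mb by 0.52 (SE 0.12; adjusted p = 0.0101). Eno3 lay above the array median in DB7 alone and Mb in Met1 alone. The filter therefore admitted each through the line in which it was high. The other genes of that list differed by -0.14 to 0.05, so the lower mean rests on Eno3. The means of the other 10 lists overlapped between the lines. The 2 brightest tested markers of the lists were Krt18 and Epcam (luminal), Acta2 and Tagln (basal), Egfl7 and Eng (endothelium), Col3a1 and Col1a2 (fibroblast), Acta2 and Rgs5 (pericyte), Lor and Sprr1a (keratinocyte), Sox10 and Mbp (Schwann cell), Eno3 and Mb (skeletal muscle), Fabp4 and Lpl (adipocyte), Lyz2 and Csf1r (macrophage), Ighm and Blk (B cell), and Cd3e and Cd4 (T cell).

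For Itgb4, Lamb3, Lamb1 and Lamc1 the genes whose values followed them most closely over the 7 arrays were listed. Beside Itgb4 these were Smpd2 (r = 0.998), Mgst1 (0.994) and Tmbim1 (0.994), and beside Lamb3 they were Hid1 (0.999), Slc25a29 (0.997) and Pld2 (0.992). Ltbp2 (0.995), Apoe (0.992) and Tpbg (0.985) were most like Lamb1, and Gdf11 (0.996), Dnaja4 (0.989) and Tmem176b (0.981) most like Lamc1. These Pearson correlations hold the difference between the lines and share all 7 arrays. With the mean of each line removed, the correlation of Itgb4 with Lamb3 was 0.42 (0.97 before) and with Itga6 0.53 (0.93 before). That of Lamb3 with Lama5 was 0.95 (-0.08 before), and Met1 1 was the highest Met1 array for both.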

How the data were processed

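Arrays of 3 Met1 and 4 DB7 tumours were compared. Each deposited value summarises 1 probe set and was read as log2, since values run from 2.27 to 14.02. Per the submitters' processing notes RMA and MAS5 were used by the authors, without saying which gave these values; no source used here gives the log base or the background correction. The values were used as deposited. Of 22690 probe sets, 64 controls were left out. GEO's platform annotation gave 1 symbol to 20380, several to 691 and none to 1555, and no symbol needed updating by the RefSeq table (GRCm38.p6).

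Probe sets above the array median on at least 3 of 7 arrays (11704) were fitted with limma 3.58.1 in R 4.3.3 (lmFit, eBayes with intensity trend, group as the only term, two-sided, Benjamini-Hochberg, threshold 0.05). Differences are Met1 minus DB7. A gene in a list was read by its brightest tested probe set. The fit was tested on simulated data. Ratios of partner genes were tested by exact permutation; pairs with an untested partner were left out, and 1 item is not reported here. The members, gene lists and alternatives were chosen with earlier results of these data known. Named genes were all members, up to 8 called genes of each related list, the 2 brightest tested markers of each cell type and the 3 genes most like Itgb4, Lamb3, Lamb1 and Lamc1; genes of the stretch beside Itgb4, the uncalled Plec, Krt5, Dag1, Cd151 and Itgb1, the markers Krt14, Trp63 and Mylk, and those said to be so were named after their values were seen. The number of arrays limits the precision.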

Additional observations from a re-analysis of the deposited data

Results flagged for a closer look

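In DB7, 1 of the 4 arrays lay far from the others for Lamc1 probe set 1423885_at: DB7 2 read 7.48 against 7.75 to 7.77, a gap of 0.938 of the group's range, above Dixon's critical value for 4 samples. Of 27 probe sets checked this was the single 1, and chance flags about 1 in 20 groups.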

How the results depend on the processing

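The probe sets of the 9 genes called higher in Met1 numbered 7 and were 5 with the 60th percentile filter, where Lamb1 and Dst probe set 1421276_a_at were not tested, and 6 to 7 when single arrays were left out. The count called lower, 1 (Lamc1), became 0 under quantile normalization, median centring, no intensity filter, the replicate block and without DB7 1 and DB7 4, and 0 to 1 when single arrays were left out; without Met1 1 it was Lama5 (1427010_s_at) and not Lamc1 that was lower. The cause was not tested. Itgb4 (1.46 to 1.72), Lamb3 (1.35 to 1.59), Itga6 (0.38 to 0.50), Dst (0.59 to 0.83) and Lamb1 (0.48 to 0.77) kept direction and call at their brightest probe set under every alternative that gave a value; Lamb1 had none without _s_at and _x_at probe sets or with the 60th percentile filter. All probe sets called numbered 3626, and 2468 to 3802 when single arrays were left out. Those called higher in Met1 numbered 1566, with 1793 under array weights and 1660 without DB7 1 and DB7 4. Related genes, recomputed after seeing the data, were 5 higher and 5 lower; they became 10 higher with array weights, 13 higher and 2 lower without DB7 1 and DB7 4, 2 lower under the replicate block, and 4 to 11 higher and 2 to 5 lower when single arrays were left out. Itgb4 and the next 6 genes gave 6 to 7 higher under all alternatives, also recomputed after seeing the data. No pairing by replicate number was seen, though so few arrays cannot exclude one. Deviations of same-numbered arrays correlated at -0.17, -0.05 and 0.02, and 0 of 3 Met1 arrays correlated best with the DB7 array of its number. With the number as a block 2803 probe sets were called. Signals below the array median limit Lama3, Col17a1 and the untested probe sets.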
